A study of Homo sapiens with 24 samples.

Results

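Expression of the DNA replication and G1/S genes was followed in T-47D cells, an established human luminal breast cancer line, on 24 arrays. The members are 49 gene symbols chosen by name, with earlier results of these data known. Of these, 48 had at least 1 probe set that the platform annotation pairs with that symbol only. BRCA2 was not analysed here. The 48 genes, of 18374 with such a probe set, stand for 50 probe sets of the 21042 with a gene symbol, of 28536 in all, and a gene with several probe sets is represented by the brightest. The arrays form 8 groups of 3 biological replicates: cells transfected with P-Rex1 RNAi #1, with P-Rex1 RNAi #2 or with a non-target control duplex (NTC), and parental cells that received no duplex, each treated for 6 h with HRG (20 ng/ml) or with PBS as vehicle. All cells were serum starved before treatment. The transfected cells were starved for 48 h from 16 h after transfection, and no source used here gives the starvation time of the parental cells. Both duplexes are single siRNAs given transiently, and all groups derive from 1 cell line.

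HRG (heregulin) is a growth factor that binds ErbB3, and P-Rex1 is a guanine nucleotide exchange factor that activates the small GTPase Rac downstream of it. As background, replication origins are licensed in G1, when the origin recognition complex with CDC6 and CDT1 loads the ring of MCM2 to MCM7 onto DNA. At the start of S phase CDC45 and the GINS complex bind MCM to form the active helicase, primase and polymerase alpha lay down primers, replication factor C loads the sliding clamp PCNA, and polymerases delta and epsilon copy the strands. Many of these genes are transcribed in late G1 under E2F factors, which the retinoblastoma protein holds back in resting cells. The arrays measured RNA of whole cultures, so fewer cells in a phase of the cycle and less RNA per cell cannot be told apart.

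Promoter sequence was not used to choose the members, and the promoters below are shown because E2F-type words stood in a larger share of them than of other promoters. RefSeq promoter windows on GRCh38.p14 were matched for 43 of the 48 genes (no window was matched for DSCC1, MCM4, MCM5, POLD3 and RPA2), and the 250 bases before the start were searched on both strands for the E2F-type words TTTCGCGC, TTTGGCGC, TTTCCCGC and TTTGCCGC. At least 1 of these words stood in 18 of the 43 genes (41.9%), against 664 of the 14206 genes measured by a single-symbol probe set with a window (4.67%) and 928 of all 27305 genes of the table (3.40%). The CHR words TTTGAA and TTCGAA, a cell cycle element of late genes, stood in 3 of the 43 (6.98%), against 2202 of the 14206 measured genes (15.5%). A match is a description of letters, not a bound site, and words of different kinds can overlap. Below are the windows of UNG, POLA2 and MCM3, which with BRCA1 had the largest mean HRG change in NTC and parental cells, and of E2F1 and MCM6, added after the matches were counted. Each is written 5′ to 3′ on the gene's own strand and ends at the base before the start, with the E2F words, or their reverse complements, in capitals. The window lies at chr12:109097922-109098171 (plus strand) for UNG, chr11:65261712-65261961 (plus strand) for POLA2, chr6:52284743-52284992 (minus strand) for MCM3, chr20:33686386-33686635 (minus strand) for E2F1 and chr2:135876444-135876693 (minus strand) for MCM6. UNG has 2 windows in the table, of which the one with a match is shown. Neither window of BRCA1 held a match, and they are not shown.
UNG: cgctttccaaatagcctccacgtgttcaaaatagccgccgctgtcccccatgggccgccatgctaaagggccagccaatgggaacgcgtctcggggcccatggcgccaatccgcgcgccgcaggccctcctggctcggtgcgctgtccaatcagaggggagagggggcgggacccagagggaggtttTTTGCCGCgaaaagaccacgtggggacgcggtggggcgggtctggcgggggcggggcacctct
POLA2: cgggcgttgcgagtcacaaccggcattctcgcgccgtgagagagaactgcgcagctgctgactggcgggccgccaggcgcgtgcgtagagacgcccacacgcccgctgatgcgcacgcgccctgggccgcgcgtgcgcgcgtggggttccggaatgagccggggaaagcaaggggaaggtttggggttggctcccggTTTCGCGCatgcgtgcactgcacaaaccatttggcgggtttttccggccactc
MCM3: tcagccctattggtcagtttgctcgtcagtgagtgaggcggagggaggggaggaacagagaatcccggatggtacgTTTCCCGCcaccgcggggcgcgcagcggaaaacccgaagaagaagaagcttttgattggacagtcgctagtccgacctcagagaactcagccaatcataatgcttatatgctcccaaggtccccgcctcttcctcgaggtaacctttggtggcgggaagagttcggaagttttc
E2F1: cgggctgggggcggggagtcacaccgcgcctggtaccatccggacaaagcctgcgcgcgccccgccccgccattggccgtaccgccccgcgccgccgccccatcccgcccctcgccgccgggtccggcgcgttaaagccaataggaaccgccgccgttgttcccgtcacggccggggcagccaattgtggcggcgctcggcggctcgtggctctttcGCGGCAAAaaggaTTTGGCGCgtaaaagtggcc
MCM6: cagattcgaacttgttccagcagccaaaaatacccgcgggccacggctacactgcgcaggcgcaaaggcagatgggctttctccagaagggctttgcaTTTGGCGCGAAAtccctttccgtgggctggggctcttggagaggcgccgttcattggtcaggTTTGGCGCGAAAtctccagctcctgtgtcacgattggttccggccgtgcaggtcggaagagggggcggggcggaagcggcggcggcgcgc
The word in POLA2 began 53 bases before the start and that in MCM3 174 bases before it. E2F1 carried 2 words, and MCM6 carried 4, as 2 pairs that overlap on opposite strands. The median HRG change in the controls was -0.43 (log2) over the 18 genes with a match and -0.49 over the 25 without, with ranges of -0.75 to -0.06 and -0.92 to -0.03, and the ranges overlapped.

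PREX1, the silenced gene, was lower with both duplexes. Its log2 level averaged 8.53 ± 0.08 with HRG and 8.99 ± 0.09 with vehicle in cells with P-Rex1 RNAi #1 and 8.73 ± 0.14 with HRG and 9.001 ± 0.030 with vehicle in cells with P-Rex1 RNAi #2, against 9.45 ± 0.13 with HRG and 10.42 ± 0.09 with vehicle in NTC cells and 9.55 ± 0.08 with HRG and 10.60 ± 0.02 with vehicle in parental cells (SD, n = 3 each). With HRG it was thus also lower in the control cells. All 10 luminal markers fixed for the check averaged between 9.16 (ESR1) and 12.67 (KRT8), and the 13 measured markers of basal cells, fibroblasts, leukocytes and endothelium between 3.38 (DCN) and 7.43 (COL1A1). Array medians lay between 6.04 and 6.18. On the second principal component, with 10.9% of the variance, 4 arrays had the lowest scores, -17.46 to -11.25, and are said below to stand apart. They are P-Rex1 RNAi #1 vehicle 2, P-Rex1 RNAi #2 HRG 3, NTC HRG 3 and parental vehicle 3. Counts without them are given beside the results they move. They are from 1 end only: the highest score, of P-Rex1 RNAi #2 HRG 1, was 11.70.

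HRG lowered most of these replication genes in cells with intact P-Rex1. The list was chosen with earlier results of these data known. The shares of all probe sets beside its counts are therefore a description, not an independent test. In NTC cells 17 of the 48 members were called lower (limma, Benjamini-Hochberg adjusted p under 0.05 with over 1.5-fold change) where 3.37% of all probe sets were, and 42 were lower at adjusted p under 0.05 alone, against 17.6% of all probe sets. In parental cells 10 members were called lower (2.41% of all probe sets) and 40 were lower at adjusted p under 0.05 (17.3% of all). No member was higher at adjusted p under 0.05 in either, where 13.6% and 13.5% of all probe sets were (2.64% and 2.86% called higher). The member changes had a median of -0.51 in NTC cells (range -1.03 to -0.08) and -0.40 in parental cells (range -0.80 to 0.09), against medians of 0.03 and -0.03 over all probe sets. HRG and vehicle arrays did not overlap for 45 members in NTC cells (23.5% of all probe sets) and for 41 in parental cells (23.2%), each with the HRG arrays below. The 2 comparisons share no array, but they share the cell line, the normalization and the estimate of the spread. In both, 45 members were lower (35.3% of all probe sets) and 39 were lower at adjusted p under 0.05 (13.3%). Called in both were 8 (1.95%), namely BRCA1, CHAF1B, E2F1, MCM3, PCNA, POLA2, RFC4 and UNG. Array 3 of the HRG group weighed on the count in each: 9 members were called in NTC cells without NTC HRG 3 and 6 in parental cells without parental HRG 3, and without the 4 arrays that stand apart the counts were 9 and 10. NTC minus parental cells gave no member at adjusted p under 0.05 with HRG or with vehicle, nor for the HRG effect itself. With vehicle 0.00475% of all probe sets were lower and 0.00475% higher, and otherwise 0% passed. At unadjusted p under 0.05, 3, 2 and 2 members passed with HRG, with vehicle and for the HRG effect, against 2030, 1203 and 1727 of all 21042 probe sets. The signs were nevertheless uneven. With vehicle 43 members were higher in NTC cells (9987 of all probe sets), with a median of 0.08 (-0.01 over all). The HRG effect was more negative in NTC cells for 36 members (8663 of all), with a median difference of -0.09 (0.03 over all). With HRG 25 were lower and 23 higher.

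**Figure D1:**
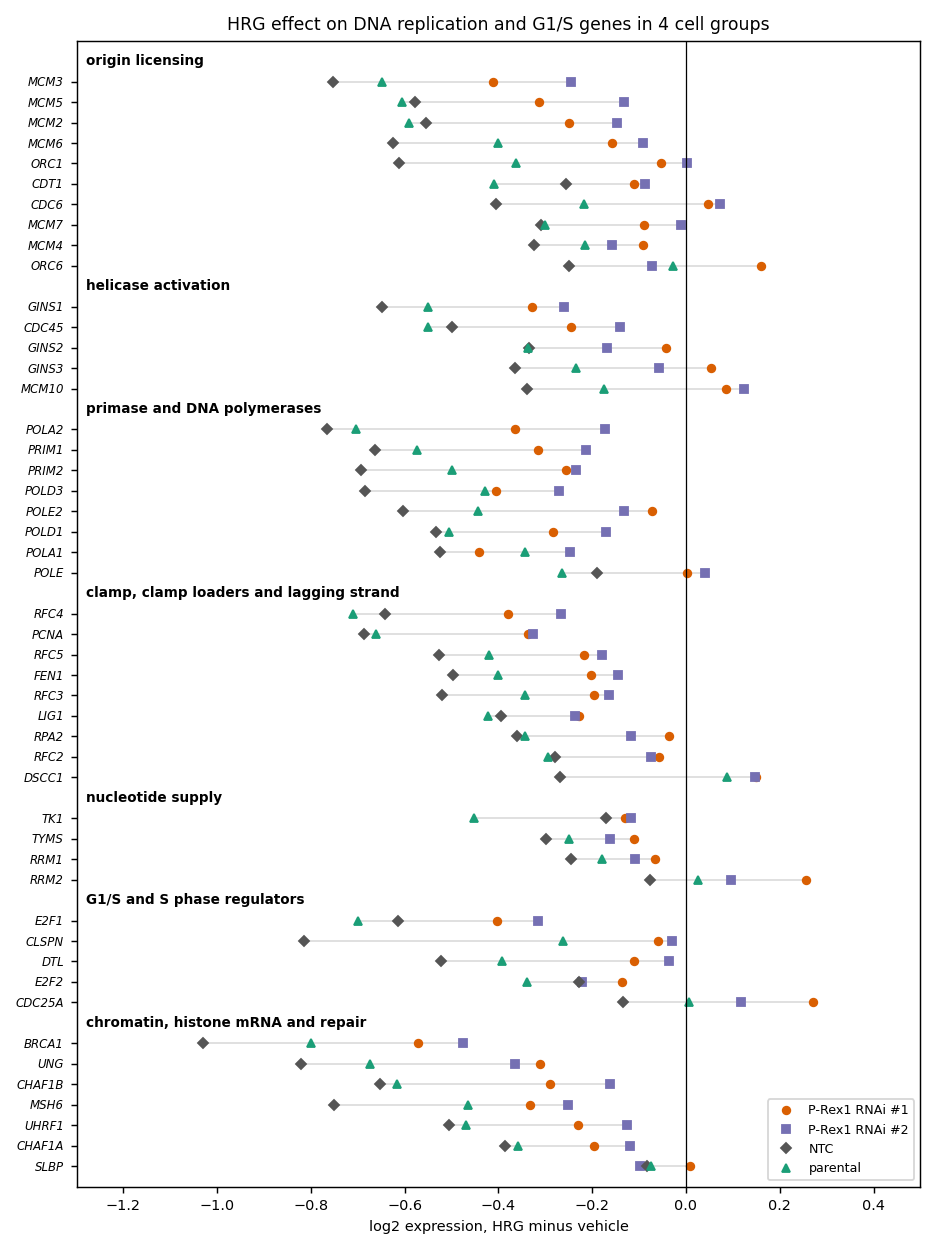
HRG minus vehicle difference in log2 expression (horizontal axis) for each of the 48 genes, in rows grouped by role, with 1 symbol for each cell group (means of 3 against 3 arrays). The gray diamonds and green triangles of NTC and parental cells lie left of the orange circles and violet squares of the P-Rex1 RNAi cells in 45 of 48 rows.

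Origin licensing genes were lowered in nearly every case: 9 of 10 were lower at adjusted p under 0.05 in NTC cells and 8 of 10 in parental cells, with medians of -0.48 and -0.38. MCM3, a subunit of the replicative helicase ring, moved most. Its log2 levels were 9.64, 9.74 and 9.52 with HRG against 10.33, 10.43 and 10.39 with vehicle in NTC cells and 9.80, 9.70 and 9.54 with HRG against 10.27, 10.35 and 10.36 with vehicle in parental cells. Every HRG array lay below every vehicle array, and the change was -0.75 ± 0.06 (SE, adjusted p = 7.32e-09) in NTC cells and -0.65 ± 0.06 (SE, adjusted p = 6.76e-08) in parental cells. MCM5 was called in parental cells, where its levels were 8.06, 8.13 and 7.88 with HRG against 8.60, 8.70 and 8.59 with vehicle, a change of -0.61 ± 0.07 (SE, adjusted p = 1.11e-06). In NTC cells MCM5 had 8.03, 8.24 and 7.95 with HRG against 8.64, 8.73 and 8.58 with vehicle and a change just short of the fold threshold, -0.58 ± 0.07 (SE, adjusted p = 1.91e-06). MCM2 behaved alike, with 8.56, 8.60 and 8.59 with HRG against 9.07, 9.21 and 9.25 with vehicle in parental cells (-0.59, adjusted p = 6.68e-07) and 8.66, 8.76 and 8.54 with HRG against 9.22, 9.33 and 9.09 with vehicle in NTC cells (-0.55, adjusted p = 1.47e-06). The groups of both genes were fully separated. MCM6 and ORC1, the largest subunit of the origin recognition complex, were called in NTC cells. MCM6 had 8.55, 8.50 and 8.24 with HRG against 9.02, 9.10 and 9.04 with vehicle in NTC cells (-0.62 ± 0.09 SE, adjusted p = 1.62e-05), and in parental cells 8.67, 8.51 and 8.47 with HRG against 9.06, 8.99 and 8.80 with vehicle (-0.40 ± 0.09 SE, adjusted p = 0.00191). ORC1 had 6.89, 6.87 and 6.53 with HRG against 7.42, 7.38 and 7.32 with vehicle in NTC cells (-0.61 ± 0.10 SE, adjusted p = 2.49e-05), and in parental cells 6.92, 7.02 and 6.73 with HRG against 7.29, 7.25 and 7.22 with vehicle (-0.36 ± 0.10 SE, adjusted p = 0.00487). For both the HRG arrays were the lower ones throughout. MCM7, MCM4 and CDT1 passed adjusted p in both cell groups with smaller changes, between -0.41 and -0.22. The loader CDC6 passed in NTC cells (-0.40) and had -0.22 in parental cells (adjusted p = 0.171), while ORC6 passed in neither (-0.25 and -0.03).

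Helicase activation genes followed, with 5 of 5 lower at adjusted p under 0.05 in NTC cells and 4 of 5 in parental cells (medians -0.37 and -0.34). GINS1, a subunit of the GINS complex, was called in NTC cells. Its levels were 10.05, 10.16 and 9.89 with HRG against 10.70, 10.71 and 10.65 with vehicle in NTC cells (-0.65 ± 0.09 SE, adjusted p = 4.55e-06) and 10.15, 10.03 and 9.89 with HRG against 10.66, 10.55 and 10.50 with vehicle in parental cells (-0.55 ± 0.09 SE, adjusted p = 3.81e-05). The groups did not overlap in either. CDC45, which joins GINS and MCM in the active helicase, changed by -0.50 in NTC cells and -0.55 in parental cells, and GINS2 and GINS3 by between -0.37 and -0.23. MCM10, which helps to fire the assembled helicase, passed in NTC cells (-0.34) and had -0.17 in parental cells (adjusted p = 0.184).

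All 8 primase and polymerase genes were lower at adjusted p under 0.05 in both cell groups, with medians of -0.63 in NTC cells and -0.47 in parental cells. POLA2, the accessory subunit of polymerase alpha, had 8.65, 8.62 and 8.29 with HRG against 9.29, 9.31 and 9.26 with vehicle in NTC cells and 8.69, 8.67 and 8.30 with HRG against 9.21, 9.33 and 9.23 with vehicle in parental cells. Both HRG groups held 1 array, numbered 3, well below the other two, and no HRG array reached the vehicle range. The change in POLA2 was -0.77 ± 0.09 (SE, adjusted p = 7.31e-07) in NTC cells and -0.70 ± 0.09 (SE, adjusted p = 2.53e-06) in parental cells. The primase subunits were called in NTC cells. PRIM1, the catalytic one, had 9.16, 9.13 and 8.84 with HRG against 9.65, 9.75 and 9.71 with vehicle in NTC cells (-0.66 ± 0.09 SE, adjusted p = 8.31e-06) and 9.29, 9.11 and 8.83 with HRG against 9.74, 9.66 and 9.54 with vehicle in parental cells (-0.57 ± 0.09 SE, adjusted p = 5.4e-05). PRIM2 had 8.20, 8.30 and 8.04 with HRG against 8.91, 8.83 and 8.88 with vehicle in NTC cells (-0.69 ± 0.10 SE, adjusted p = 1.41e-05) and 8.42, 8.38 and 7.94 with HRG against 8.76, 8.77 and 8.71 with vehicle in parental cells (-0.50 ± 0.10 SE, adjusted p = 0.00059). In both genes the HRG arrays numbered 3 were the lowest. Of the replicative polymerases, the accessory subunit of delta POLD3 had 8.57, 8.38 and 8.14 with HRG against 9.05, 8.96 and 9.13 with vehicle in NTC cells (-0.68, adjusted p = 3.04e-05) and 8.57, 8.52 and 8.32 with HRG against 8.99, 8.92 and 8.80 with vehicle in parental cells (-0.43, adjusted p = 0.00353). POLE2, an accessory subunit of epsilon, had 8.76, 8.79 and 8.55 with HRG against 9.34, 9.27 and 9.30 with vehicle in NTC cells (-0.60, adjusted p = 1.84e-05) and 8.94, 8.79 and 8.58 with HRG against 9.26, 9.27 and 9.11 with vehicle in parental cells (-0.44, adjusted p = 0.000588). All HRG arrays of both lay below the vehicle arrays. Of the catalytic polymerase subunits, POLD1 changed by -0.53 in NTC cells and -0.51 in parental cells, POLA1 by -0.52 and -0.34, and POLE by -0.19 and -0.27.

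Of 9 genes for the clamp, its loaders and the lagging strand, 8 were lower at adjusted p under 0.05 in each cell group (medians -0.50 in NTC and -0.40 in parental cells). PCNA, the sliding clamp, had 9.99, 10.08 and 9.92 with HRG against 10.62, 10.76 and 10.67 with vehicle in NTC cells and 9.92, 9.83 and 10.08 with HRG against 10.68, 10.58 and 10.57 with vehicle in parental cells. It was lower on every HRG array, by -0.69 ± 0.07 (SE, adjusted p = 2.28e-07) in NTC cells and -0.66 ± 0.07 (SE, adjusted p = 4.07e-07) in parental cells. RFC4, a clamp loader subunit, had 10.85, 10.88 and 10.54 with HRG against 11.40, 11.43 and 11.38 with vehicle in NTC cells and 10.89, 10.66 and 10.54 with HRG against 11.37, 11.45 and 11.40 with vehicle in parental cells. Its vehicle arrays were tight and its HRG arrays spread wider below them, with changes of -0.64 ± 0.08 (SE, adjusted p = 2.04e-06) and -0.71 ± 0.08 (SE, adjusted p = 5.58e-07). RFC3 and RFC5, the flap endonuclease FEN1, the ligase LIG1, RPA2 of the single-strand binding complex and RFC2 passed in both cell groups, with changes between -0.53 and -0.28. DSCC1, of an alternative clamp loader, did not pass in either: its change was -0.27 in NTC cells (adjusted p = 0.114) and 0.09 in parental cells (adjusted p = 0.683).

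The nucleotide supply genes had the smallest median change of the 7 roles (-0.21 in both cell groups), with none called in either cell group and 3 of 4 lower at adjusted p under 0.05 in each. TK1, thymidine kinase of the salvage route, had 10.40, 10.51 and 10.52 with HRG against 10.61, 10.70 and 10.63 with vehicle in NTC cells and 10.19, 10.24 and 10.15 with HRG against 10.61, 10.68 and 10.65 with vehicle in parental cells. It was lower on all HRG arrays, by -0.17 ± 0.06 (SE, adjusted p = 0.0316) in NTC cells and -0.45 ± 0.06 (SE, adjusted p = 3.58e-06) in parental cells, and the difference between these effects had an adjusted p of 0.603. TYMS, thymidylate synthase, changed by -0.30 and -0.25, and RRM1, the large subunit of ribonucleotide reductase, by -0.25 and -0.18. RRM2, its small subunit, did not pass (-0.08 in NTC cells, adjusted p = 0.487, and 0.03 in parental cells, adjusted p = 0.846).

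Among 5 regulators of G1/S and S phase, E2F1, a transcription factor for many of the other members, fell in both. It had 7.94, 7.86 and 7.86 with HRG against 8.58, 8.55 and 8.38 with vehicle in NTC cells and 7.93, 7.95 and 7.73 with HRG against 8.58, 8.63 and 8.51 with vehicle in parental cells. No HRG array came near the vehicle arrays of its own cell group, with changes of -0.61 ± 0.06 (SE, adjusted p = 1.41e-07) in NTC cells and -0.70 ± 0.06 (SE, adjusted p = 2.11e-08) in parental cells. CLSPN, the checkpoint adaptor claspin, was called in NTC cells alone, with 6.86, 6.98 and 6.37 with HRG against 7.62, 7.55 and 7.48 with vehicle and a change of -0.82 ± 0.14 (SE, adjusted p = 0.00011). In parental cells CLSPN had 7.16, 7.04 and 6.999 with HRG against 7.46, 7.46 and 7.07 with vehicle, and the groups overlapped (-0.26 ± 0.14 SE, adjusted p = 0.196). The difference between these 2 effects had an adjusted p of 0.603, and a second, dimmer CLSPN probe set changed by -0.48 in NTC cells and -0.02 in parental cells. DTL, a receptor of the ligase that degrades CDT1, passed in both (-0.52 and -0.39). E2F2 passed in parental cells (-0.34) and not in NTC cells (-0.23, adjusted p = 0.0601). CDC25A, the phosphatase that activates CDK2, passed in neither (-0.13 in NTC and 0.01 in parental cells).

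In the group of chromatin, histone mRNA and repair genes, 6 of 7 were lower at adjusted p under 0.05 in each cell group (medians -0.65 in NTC and -0.47 in parental cells). BRCA1, a homologous recombination gene, had the most negative change of all members in both. It had 7.49, 7.59 and 6.95 with HRG against 8.38, 8.41 and 8.34 with vehicle in NTC cells and 7.71, 7.63 and 7.35 with HRG against 8.47, 8.37 and 8.25 with vehicle in parental cells. The arrays did not overlap, and NTC HRG 3 was the lowest. The change was -1.03 ± 0.13 (SE, adjusted p = 1.17e-06) in NTC cells and -0.80 ± 0.13 (SE, adjusted p = 3.24e-05) in parental cells, a fold of 2.04 and 1.74. UNG, the uracil DNA glycosylase, had 8.16, 8.14 and 8.03 with HRG against 8.94, 8.998 and 8.85 with vehicle in NTC cells and 8.33, 8.12 and 8.06 with HRG against 8.80, 8.87 and 8.85 with vehicle in parental cells. Its groups were far apart in both, with changes of -0.82 ± 0.07 (SE, adjusted p = 2.66e-09) and -0.67 ± 0.07 (SE, adjusted p = 5.4e-08). CHAF1B, of the chromatin assembly factor that deposits histones behind the fork, had 8.65, 8.78 and 8.54 with HRG against 9.34, 9.29 and 9.29 with vehicle in NTC cells and 8.64, 8.72 and 8.48 with HRG against 9.19, 9.25 and 9.24 with vehicle in parental cells. Every HRG array was below the vehicle arrays, by a mean of -0.65 ± 0.09 (SE, adjusted p = 2.63e-06) and -0.62 ± 0.09 (SE, adjusted p = 6.08e-06). MSH6 of mismatch repair was called in NTC cells, where it had 8.36, 8.38 and 7.78 with HRG against 8.92, 9.05 and 8.80 with vehicle (-0.75 ± 0.14 SE, adjusted p = 0.000216). In parental cells it had 8.47, 8.51 and 8.24 with HRG against 8.95, 8.94 and 8.73 with vehicle (-0.46 ± 0.14 SE, adjusted p = 0.0139). CHAF1A and UHRF1, which recruits maintenance methylation to new DNA, passed in both with changes between -0.51 and -0.36, and the second UHRF1 probe set, dimmer by over 3 on the log2 scale, had 0.18 and -0.04. SLBP, which binds histone mRNA, passed in neither (-0.08 and -0.07).

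**Figure D2:**
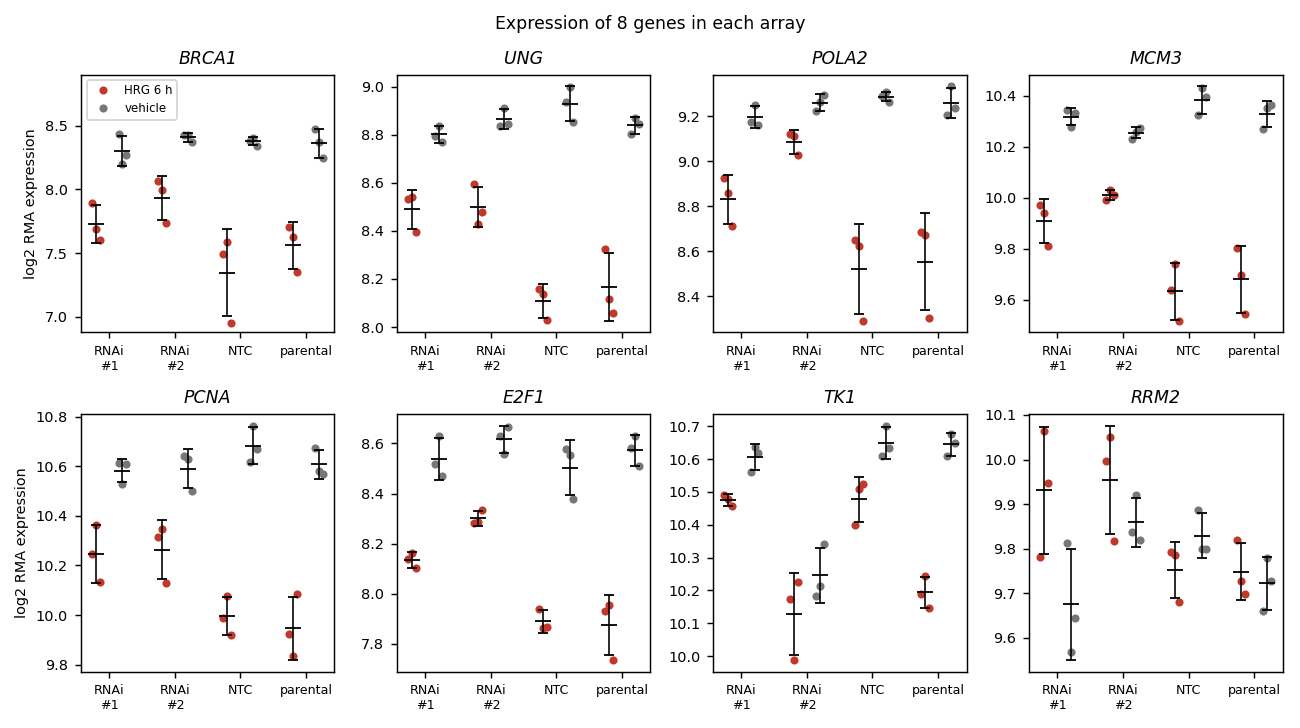
Log2 expression (vertical axis, a separate scale in each panel) of 8 genes in each array by cell group, with HRG in red left of vehicle in gray, and the mean and SD of 3 arrays as black bars. For POLA2 the HRG arrays averaged 8.83 with P-Rex1 RNAi #1 and 9.09 with P-Rex1 RNAi #2, against 8.52 in NTC and 8.55 in parental cells.

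With P-Rex1 silenced, fewer members were lower with HRG and their median change was smaller. In cells with P-Rex1 RNAi #1 no member was called (1.15% of all probe sets were called lower and 2.52% higher), and 21 were lower (12.4% of all) and 2 higher (14.9% of all) at adjusted p under 0.05. In cells with P-Rex1 RNAi #2 no member was called (0.656% of all probe sets were called lower and 1.07% higher), 9 were lower (7.64% of all) and none higher (8.2% of all) at adjusted p under 0.05. At unadjusted p under 0.05 in either direction, 28 and 21 members passed, against 8001 and 5519 of all 21042 probe sets. Median changes were -0.18 with P-Rex1 RNAi #1 and -0.14 with P-Rex1 RNAi #2, against -0.51 in NTC and -0.40 in parental cells. HRG and vehicle arrays were separated with HRG below for 29 members with P-Rex1 RNAi #1 (19.6% of all probe sets) and for 21 with P-Rex1 RNAi #2 (13.7%). The genes still lower at adjusted p under 0.05 with both duplexes were BRCA1, E2F1, GINS1, LIG1, MCM3, PCNA, RFC4 and UNG. With P-Rex1 RNAi #2, GINS1 fell short of that threshold under 20 of 35 alternative ways of processing and RFC4 under 6 of 35. E2F1, MCM3, PCNA and UNG held under all of them with both duplexes. RRM2 and CDC25A were the 2 higher with P-Rex1 RNAi #1. RRM2 had 9.78, 10.06 and 9.95 with HRG against 9.81, 9.57 and 9.65 with vehicle in those cells, with overlap of the groups (0.26 ± 0.07 SE, adjusted p = 0.0135), and 10.00, 10.05 and 9.82 with HRG against 9.84, 9.92 and 9.82 with vehicle in cells with P-Rex1 RNAi #2 (0.10 ± 0.07 SE, adjusted p = 0.498). CDC25A had 7.82, 7.74 and 7.60 with HRG against 7.48, 7.28 and 7.60 with vehicle with P-Rex1 RNAi #1 (0.27 ± 0.09 SE, adjusted p = 0.0366) and 7.86, 7.71 and 7.72 with HRG against 7.75, 7.62 and 7.57 with vehicle with P-Rex1 RNAi #2 (0.12 ± 0.09 SE, adjusted p = 0.508). Neither gene rose in NTC or parental cells at adjusted p under 0.05.

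**Figure D3:**
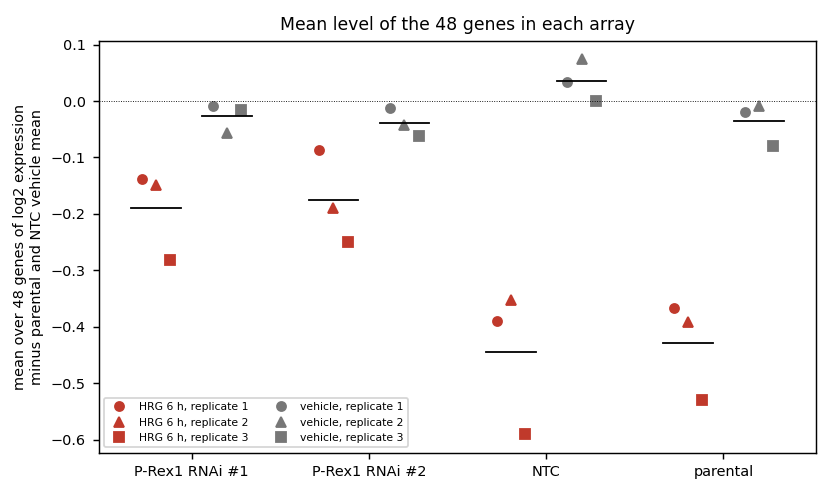
Mean over the 48 genes of log2 expression minus each gene's mean in NTC and parental vehicle arrays (vertical axis), for each array by cell group, HRG in red and vehicle in gray, with the group mean as a line and the replicate number as the symbol. HRG arrays lay between -0.28 and -0.09 in cells with either duplex, against -0.59 to -0.35 in NTC and parental cells.

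The mean over the 48 genes showed the same order on the arrays themselves. Relative to the vehicle arrays of NTC and parental cells it lay between -0.28 and -0.14 with HRG and -0.06 and -0.01 with vehicle in cells with P-Rex1 RNAi #1, and between -0.25 and -0.09 with HRG and -0.06 and -0.01 with vehicle in cells with P-Rex1 RNAi #2. In NTC cells it lay between -0.59 and -0.35 with HRG and 0.00 and 0.07 with vehicle, and in parental cells between -0.53 and -0.37 with HRG and -0.08 and -0.01 with vehicle. No HRG array of the silenced cells reached the range of the control HRG arrays. The array numbered 3 was the lowest of its group in all 4 HRG groups, and what the number marks is not given.

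The difference between HRG effects was then tested gene by gene, as the HRG effect with a duplex minus the mean HRG effect in NTC and parental cells. It was above 0 for 47 of 48 members with each duplex, against 10908 and 10630 of all 21042 probe sets. Medians were 0.28 for P-Rex1 RNAi #1 and 0.32 for P-Rex1 RNAi #2 (0.01 and 0.00 over all probe sets). For P-Rex1 RNAi #1, 2 members passed adjusted p under 0.05 (0.718% of all probe sets passed in that direction and 0.442% in the other), and for P-Rex1 RNAi #2, 18 members (2.1% of all in that direction and 1.85% in the other). At unadjusted p under 0.05, 40 and 36 members passed, against 3973 and 3290 of all 21042 probe sets in either direction. No member was called by fold as well (0.0808% and 0.166% of all probe sets in that direction, above 0). Both sets of values use the same 12 control arrays. The 2 counts do not show that the duplexes differ. The HRG effect with P-Rex1 RNAi #2 minus that with P-Rex1 RNAi #1 ran from -0.23 to 0.19. No member passed adjusted p under 0.05 (0.0665% of all probe sets did, lower) or unadjusted p under 0.05 (1575 of 21042 did). The counts also rest on single arrays. For P-Rex1 RNAi #2 the count was 8 without its vehicle array 2 and 9 without its HRG array 1, and for P-Rex1 RNAi #1 it was 9 without NTC HRG 2, 0 without its HRG array 2, and 1 to 3 without any other single array. Without the 4 arrays that stand apart the counts were 0 and 20. Both counts were higher with the replicate number as a block, as given in the closing section. The labels do not say whether the numbers pair the arrays.

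In the fit without a replicate block, UNG was the 1 member that passed for both duplexes. Its levels were 8.53, 8.54 and 8.40 with HRG against 8.80, 8.84 and 8.77 with vehicle with P-Rex1 RNAi #1 and 8.59, 8.43 and 8.48 with HRG against 8.84, 8.91 and 8.84 with vehicle with P-Rex1 RNAi #2, the HRG change being -0.31 and -0.36, against -0.82 in NTC and -0.67 in parental cells. No HRG array of either duplex was as low as the highest control HRG array, 8.33. The difference of effects was 0.44 ± 0.08 (SE, adjusted p = 0.0135) and 0.38 ± 0.08 (SE, adjusted p = 0.00699). POLE2 passed for P-Rex1 RNAi #1, with 9.15, 9.09 and 9.06 with HRG against 9.22, 9.11 and 9.19 with vehicle, overlapping groups and a difference of 0.45 ± 0.11 (SE, adjusted p = 0.0492). For P-Rex1 RNAi #2 it had 9.41, 9.17 and 8.98 with HRG against 9.35, 9.27 and 9.33 with vehicle and a difference of 0.39 ± 0.11 (SE, adjusted p = 0.052). POLA2 had the largest difference for P-Rex1 RNAi #2. Its levels there were 9.12, 9.11 and 9.03 with HRG against 9.22, 9.26 and 9.30 with vehicle, not overlapping but close together, and the difference was 0.56 ± 0.11 (SE, adjusted p = 0.00411). With P-Rex1 RNAi #1 POLA2 had 8.92, 8.86 and 8.71 with HRG against 9.18, 9.25 and 9.16 with vehicle and a difference of 0.37 ± 0.11 (SE, adjusted p = 0.0989).

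By role, 6 of 10 licensing genes passed for P-Rex1 RNAi #2. ORC1 had overlapping groups with that duplex, 7.40, 7.19 and 7.16 with HRG against 7.33, 7.15 and 7.27 with vehicle (0.00, 95% interval -0.20 to 0.20), and the difference of effects was 0.49 ± 0.12 (SE, adjusted p = 0.0176). MCM3 kept part of its fall, with 9.99, 10.03 and 10.01 with HRG against 10.23, 10.26 and 10.28 with vehicle and a difference of 0.46 ± 0.08 (SE, adjusted p = 0.0012). MCM2, MCM5, MCM6 and MCM7 passed with differences between 0.29 and 0.46. Of the polymerases POLD1 (0.35) and POLE (0.27) passed beside POLA2. In the clamp group RFC4 (0.41), PCNA (0.35), FEN1 (0.31) and RFC5 (0.29) passed. CHAF1B (0.47) and UHRF1 (0.36) did so among the chromatin genes, and CDC45 (0.39) among the activators. E2F1 passed as well. In cells with P-Rex1 RNAi #2 it had 8.28, 8.29 and 8.34 with HRG against 8.63, 8.56 and 8.66 with vehicle, a separation smaller than in the controls, and a difference of 0.34 ± 0.08 (SE, adjusted p = 0.0145). None of the 4 nucleotide supply genes passed for either duplex. BRCA1 did not pass, with 0.34 ± 0.15 (SE, adjusted p = 0.234) for P-Rex1 RNAi #1 and 0.44 ± 0.15 (SE, adjusted p = 0.125) for P-Rex1 RNAi #2, its SE being the widest of the genes called in both controls. At the other end, POLA1 with P-Rex1 RNAi #1 (-0.01) and SLBP with P-Rex1 RNAi #2 (-0.02) were the single members below 0.

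**Figure D4:**
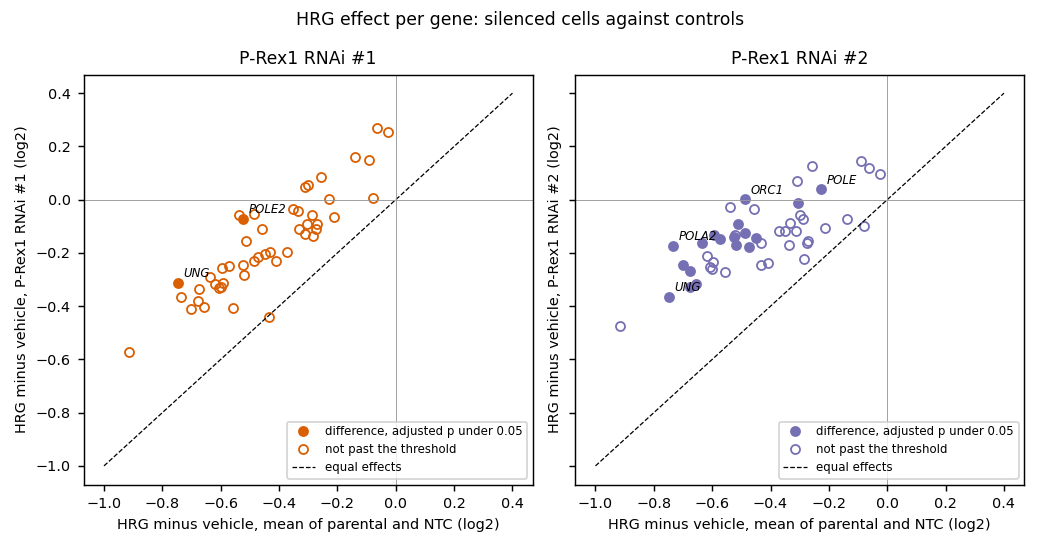
HRG minus vehicle difference with P-Rex1 RNAi #1 (left) or #2 (right) on the vertical axis against the mean of the same difference in NTC and parental cells on the horizontal axis, in log2 units, 1 point per gene. Filled points are the 2 and 18 genes whose difference passed adjusted p under 0.05, and 47 of 48 points in each panel lie above the dashed line of equal effects.

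The weaker lowering was set beside that of other genes as a description. Over the 43 members lower at adjusted p under 0.05 in the mean of both controls (22% of all probe sets were), the median HRG change was -0.20 with P-Rex1 RNAi #1 and -0.16 with P-Rex1 RNAi #2, against -0.49 in the controls. Over the 4586 other probe sets lowered in the controls it was -0.17 and -0.16, against -0.29. For the 1461 of these whose control change lay between the quartiles of the members (-0.60 to -0.32) it was -0.26 and -0.24, against -0.42. Of the members 42 and 43 were lowered less with the duplex (97.7% and 100%), and of these 1461 probe sets 90.6% and 95.3%. The difference of effects passed adjusted p under 0.05 for 4.65% and 41.9% of these members with P-Rex1 RNAi #1 and #2, against 3.29% and 10.9% of the 1461 probe sets and 2.66% and 8.57% of the 4586. A weaker fall with HRG was seen in most lowered probe sets, and all 3 sets were chosen on the control values that enter the comparison.

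With vehicle, few members differed between silenced and control cells at adjusted p under 0.05. P-Rex1 RNAi #1 minus the mean of NTC and parental cells gave no member at adjusted p under 0.05 (0.623% of all probe sets were lower and 0.0428% higher). At unadjusted p under 0.05 it gave 3, against 2491 of all 21042 probe sets, and the member median was -0.03. P-Rex1 RNAi #2 gave 3 lower members (2.59% of all probe sets) and none higher (0.756%), also with a median of -0.03: TK1, CDC45 and GINS2. Without P-Rex1 RNAi #2 vehicle 2, 1 member passed in that comparison with the controls. TK1 with vehicle had 10.18, 10.21 and 10.34 with P-Rex1 RNAi #2 and 10.56, 10.64 and 10.62 with P-Rex1 RNAi #1, against 10.61, 10.70 and 10.63 in NTC and 10.61, 10.68 and 10.65 in parental cells. All 3 arrays of P-Rex1 RNAi #2 lay below every other vehicle array, by -0.40 ± 0.05 (SE, adjusted p = 6.09e-05) relative to the controls. CDC45 with vehicle had 8.35, 8.30 and 8.39 with P-Rex1 RNAi #2 and 8.55, 8.66 and 8.64 with P-Rex1 RNAi #1, against 8.58, 8.82 and 8.67 in NTC and 8.56, 8.65 and 8.66 in parental cells (-0.31 ± 0.06 SE, adjusted p = 0.00508). GINS2 changed by -0.27 ± 0.07 (SE, adjusted p = 0.0341) with P-Rex1 RNAi #2 and by -0.20 ± 0.07 (SE, adjusted p = 0.217) with P-Rex1 RNAi #1. P-Rex1 RNAi #2 minus #1 with vehicle passed for 2 members (1.34% of all probe sets, lower), TK1 (-0.36, adjusted p = 0.0018) and CDC45 (-0.27, adjusted p = 0.0477), so these genes differed between the duplexes.

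With HRG, the members stood higher in silenced than in control cells. P-Rex1 RNAi #1 minus the mean of NTC and parental cells gave 24 higher members at adjusted p under 0.05 (3.39% of all probe sets) and none lower (1.68%), and P-Rex1 RNAi #2 gave 33 higher (8.33% of all) and 1 lower (6.71% of all). Medians were 0.25 and 0.29, and no member was called by fold as well (0.038% and 0.114% of all probe sets were, higher). For 27 members with each duplex all 3 arrays lay above all 6 control HRG arrays (7.08% and 7.56% of all probe sets). CLSPN had the largest difference with P-Rex1 RNAi #1 (0.51 ± 0.12 SE, adjusted p = 0.0179), followed by ORC1 (0.44 ± 0.08 SE, adjusted p = 0.00309). POLA2 (0.55 ± 0.08 SE, adjusted p = 3.45e-05) and BRCA1 (0.48 ± 0.11 SE, adjusted p = 0.00372) led with P-Rex1 RNAi #2. BRCA1 with HRG had 8.07, 7.997 and 7.73 with P-Rex1 RNAi #2 and 7.90, 7.69 and 7.61 with P-Rex1 RNAi #1, against 7.49, 7.59 and 6.95 in NTC and 7.71, 7.63 and 7.35 in parental cells. The arrays of P-Rex1 RNAi #2 lay above all control HRG arrays, and some of P-Rex1 RNAi #1 lay within the control range. TK1 was the 1 lower member with P-Rex1 RNAi #2 (-0.21 ± 0.05 SE, adjusted p = 0.00755). With HRG it had 10.17, 9.99 and 10.22 with that duplex, against 10.40, 10.51 and 10.52 in NTC and 10.19, 10.24 and 10.15 in parental cells. Its arrays thus lay below those of NTC cells but overlapped those of parental cells, unlike with vehicle. The count for P-Rex1 RNAi #1 was 8 without its HRG array 1 or without its HRG array 2.

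Other replication genes, 72 by name of which 66 were measured, mostly moved the same way with smaller medians. In NTC cells 9 were called lower (3.37% of all probe sets were). At adjusted p under 0.05, 40 were lower (17.6% of all) and 2 higher (13.6% of all), with a median of -0.30. In parental cells 1 was called lower, 1.5% of the 66 against 2.41% of all probe sets. There 37 were lower (17.3% of all) and 5 higher (13.5% of all) at adjusted p under 0.05, with a median of -0.24. BRIP1, a helicase that partners BRCA1, was the 1 called in parental cells (-0.64, adjusted p = 0.000352) and had -0.89 in NTC cells (adjusted p = 6.59e-06). CCNE1, which encodes cyclin E and drives entry into S phase, went the other way: it rose by 0.49 in NTC cells (adjusted p = 3.59e-06) and 0.50 in parental cells (adjusted p = 3.33e-06), and by 0.71 and 0.66 with P-Rex1 RNAi #1 and #2. CDKN1A, the cyclin-dependent kinase inhibitor p21, rose by 0.50 in NTC cells (adjusted p = 0.000361) and 0.31 in parental cells (adjusted p = 0.0181). These 2 were named after their values were seen. With P-Rex1 RNAi #1 21 of the 66 were lower (12.4% of all probe sets) and 6 higher (14.9%) at adjusted p under 0.05. With P-Rex1 RNAi #2 10 were lower (7.64%) and 3 higher (8.2%). Called higher were 2 and 1 of the 66 with P-Rex1 RNAi #1 and #2 (2.52% and 1.07% of all probe sets). Called lower were 0 with either duplex (1.15% and 0.656% of all). The difference of HRG effects passed for 3 (CDK2, GINS4 and E2F8) with P-Rex1 RNAi #1 and for 5 (ASF1B, BLM, DNMT1, RPA1 and TIMELESS) with P-Rex1 RNAi #2. All were above 0, where 0.718% and 2.1% of all probe sets passed.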

How the data were processed

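RNA of 24 T-47D cultures was hybridised to Affymetrix GeneChip Human Gene 1.0 ST arrays. The deposited values are log2 expression per probe set, which the authors obtained with Robust Multichip Average (background adjustment, quantile normalization over arrays, summarization) in R/Bioconductor with simpleaffy. The versions they used are not given in the sources used here. Such values are relative, and their number limits the precision. Of 28536 probe sets, 19292 had 1 symbol, 1750 several and 7494 none in the platform annotation, and members were named from probe sets with 1 symbol. All 24 value columns were used.

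Groups came from the sample labels, which call the replicates biological. One mean per group was fitted over all 24 arrays with limma 3.58.1 in R 4.3.3 (16 residual degrees of freedom) for the 21042 probe sets with a symbol, and p-values were adjusted over all of them by the method of Benjamini and Hochberg. Every adjusted p in the text is from this fit, each SE is its standard error, and differences are on the log2 scale. A probe set was called at adjusted p under 0.05 and fold change over 1.5. The fit was also run on simulated data with independent noise in each array. Deviations shared by arrays of the same number were not simulated, so that run cannot show how they affect the calls. The study's methods name Rank Products, which was run as an alternative beside other normalizations, filters, variance models, control groups, fold thresholds and the omission of arrays.

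Values in every array were given for members called with HRG in NTC or parental cells, for those that led their role, and for others a result turns on, among which RRM2 and CDC25A were chosen after their values were seen. Members and lists were chosen with earlier results of these data known. Promoter sequences are RefSeq, GRCh38.p14.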

Additional observations from a re-analysis of the deposited data

Results flagged for a closer look

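The HRG effect differed between silenced and control cells, by a test of the difference itself, for 20 pairs of gene and duplex (limma, adjusted p under 0.05). Each value is the HRG effect with the duplex minus the mean HRG effect in NTC and parental cells, in log2 units with its SE. With P-Rex1 RNAi #1 these were POLE2 0.45 ± 0.11 and UNG 0.44 ± 0.08. With P-Rex1 RNAi #2 they were POLA2 0.56 ± 0.11, ORC1 0.49 ± 0.12, CHAF1B 0.47 ± 0.10, MCM5 0.46 ± 0.09, MCM3 0.46 ± 0.08 and MCM2 0.43 ± 0.08 in the upper range. The next were MCM6 0.42 ± 0.11, RFC4 0.41 ± 0.10, CDC45 0.39 ± 0.09, UNG 0.38 ± 0.08, UHRF1 0.36 ± 0.10 and PCNA 0.35 ± 0.09. The smallest were POLD1 0.35 ± 0.08, E2F1 0.34 ± 0.08, FEN1 0.31 ± 0.07, RFC5 0.29 ± 0.08, MCM7 0.29 ± 0.07 and POLE 0.27 ± 0.07. All are positive, each duplex is set against the same 12 control arrays, and the values with P-Rex1 RNAi #2 were not shown to differ from those with P-Rex1 RNAi #1. Of these 20, only POLA2 and MCM3 with P-Rex1 RNAi #2 passed under every alternative processing, and POLE2 fell short in 25 of 36.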

How the results depend on the processing

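Of 195 member calls at adjusted p under 0.05, each recomputed under 35 or 36 alternatives (6906 values), 6494 kept their direction and side of the threshold, 412 kept the direction only and 0 reversed. The comparisons were not equally stable. For HRG, 37 of 42 calls in NTC cells and 34 of 40 in parental cells held under every alternative. With P-Rex1 RNAi #1 and #2, 11 of 23 and 4 of 9 HRG calls did. For the duplexes against controls with HRG, 5 of 24 held with P-Rex1 RNAi #1 and 19 of 34 with P-Rex1 RNAi #2. With vehicle 1 of 3 held for P-Rex1 RNAi #2. For the differences of HRG effects, 0 of 2 held with P-Rex1 RNAi #1 and 2 of 18 with P-Rex1 RNAi #2. Rank Products over pairs of equal number, with p from a gamma approximation, an unadjusted threshold of 0.005 and no test of differences between effects, called 10 members in parental and 17 in NTC cells and 0 with either duplex. With a fold threshold of 1.2 the called counts were 36 in parental and 38 in NTC cells, 15 and 5 with P-Rex1 RNAi #1 and #2, 3 for P-Rex1 RNAi #2 against controls with vehicle, 15 and 26 for the duplexes against controls with HRG, and 2 and 18 for the differences of HRG effects. With no fold threshold they were 40, 42, 23, 9, 3, 24, 34, 2 and 18 in the same order. No share of all probe sets is given for Rank Products or for the 1.2-fold threshold. Those counts show how the calls depend on the setting, not how the members compare with other genes. Without the 4 arrays that stand apart the called counts were 9 in NTC cells, 1 with P-Rex1 RNAi #1 and 1 for the difference of effects of P-Rex1 RNAi #2, and 0 differences passed for P-Rex1 RNAi #1. Without the 8 arrays numbered 3, an alternative chosen after seeing the data, 6 were called in parental cells, 13 were lower with P-Rex1 RNAi #1, 10 were higher with it against controls with HRG, and 0 and 6 differences of effects passed. The count of 2 differences for P-Rex1 RNAi #1 was 4 without the dimmest 25% of probe sets, 1 over all probe sets, 1 with arrays centred on their medians, 1 with quantile normalization repeated, 6 with a variance trend and robust fit, 23 with array weights and 1 with NTC cells alone as control. Repeated quantile normalization also gave 1 called member with P-Rex1 RNAi #1. With NTC cells alone as control, 1 member was called for each duplex with HRG, 3 differences were called for P-Rex1 RNAi #2, and 14 were higher with P-Rex1 RNAi #1 and HRG, a count that was 12 when only the groups of that comparison were fitted.

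Leaving out 1 array at a time, called counts ran from 6 to 11 in parental cells, 9 to 21 in NTC cells, and 0 to 1 with P-Rex1 RNAi #1, for P-Rex1 RNAi #1 against controls with HRG and for the difference of P-Rex1 RNAi #2, and the other called counts stayed at 0. At adjusted p under 0.05 they ran from 35 to 40 in parental and 38 to 43 in NTC cells, 14 to 22 and 6 to 12 with P-Rex1 RNAi #1 and #2, 1 to 3 for P-Rex1 RNAi #2 with vehicle, 8 to 28 and 23 to 34 for the duplexes with HRG, and 0 to 9 and 8 to 21 for the differences of effects. With the replicate number as a block, 15 members were lower with P-Rex1 RNAi #2, and 18 and 31 differences of effects passed, while all 195 calls were kept. The labels do not say whether the numbers pair the arrays: 10 of 12 HRG and vehicle pairs of a number had deviations correlated above 0.1 (-0.05 to 0.39), and 21 of 24 arrays correlated best with their own number. The cause of these shifts was not tested. With 3 arrays per group the median SE of a member's HRG change was 0.08 on the log2 scale, which limits the differences that could pass.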
